A study of Mus musculus with 12 samples.

Results

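The genes described here are 50 mouse genes of mitosis and the spindle: the mitotic cyclins with CDK1 and its activators, the mitotic kinases, and the genes of the chromosomal passenger complex, the spindle checkpoint, anaphase, the kinetochore, the spindle, the midzone and mitotic chromosome structure, with 2 transcription factors of their expression programme. They were chosen by symbol and known function, with earlier results of these data known, and no measured value entered the rule. All 50 symbols were found among the 32544 in the table, and all 50 were among the 14279 genes that passed the filter on low counts. Ska1 was the lowest of them, with 6 to 35 counts in a library, and the next lowest, Spc24, had 30 to 168.

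RNA was measured in bulk from 3T3 cells, an immortalised mouse fibroblast line, with 3 libraries for each of 4 conditions. Cells without EVs served as the untreated group. The other 3 groups received extracellular vesicles (EVs), membrane-bound particles shed by cells, for 24 h. The source of the EVs was the human breast cancer line MDA-MB-468, which carried either a control construct (shCon), a knockdown of CRIPTO (shCr) or an overexpression of CRIPTO (CrOE), a cell-surface protein of the EGF-CFC family. The recipient fibroblasts themselves were the same line in all groups, and the dose of EVs is not given in the sources used here. Replicates are numbered in the labels, but nothing says that they came from separate cultures, so the p-values measure the spread between these libraries, which may be technical.

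Entry into mitosis is driven by CDK1 bound to cyclin A or B, which the CDC25 phosphatases activate. The kinases PLK1, Aurora A and Aurora B then direct spindle assembly and the attachment of chromosomes at their kinetochores, and the spindle checkpoint holds back the anaphase-promoting complex until attachment is complete. Most of these genes are transcribed in a wave late in the cell cycle and are low in cells that have stopped dividing, including resting fibroblasts. The wave is known to be held down by the DREAM complex and raised by MYBL2 and FOXM1 through a promoter element called the CHR (cell cycle genes homology region), often placed next to CCAAT boxes bound by NF-Y.

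Promoter windows, from 250 bases before to 50 bases after the start of a transcript, were taken from RefSeq (build GRCm38.p6) for 40 of the 50 genes. Aurkb, Ccna2, Cdc25c, Foxm1, Incenp, Kif20a, Ska1, Smc4, Spc24 and Tpx2 had no window. The CHR letters TTTGAA, read on both strands, occurred in 29 of the 40 genes (72.5%), against 20.2% of the 27025 genes with such a window. Within 50 bases of the start they occurred in 27 of 40 (67.5%), against 5.72% of all genes. CCAAT on either strand occurred in 30 of 40 (75.0%), against 41.1%, and both sets of letters occurred in 26 of 40 (65.0%), against 8.97%. A further search for E2F-like letters, TTTNNCGC on both strands, was added after the data were seen. It matched 5 of 40 genes (12.5%), namely Bub3, Cdk1, Espl1, Ncapg and Racgap1, against 5.93% of all genes. Other forms of an E2F site were not searched, so a gene without this match, such as Mybl2, may still hold one. These are matches of letters in a fixed window, not bound sites, and they were read from a different genome build than the one the submitters' notes name (mm39).

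**Figure D1:**
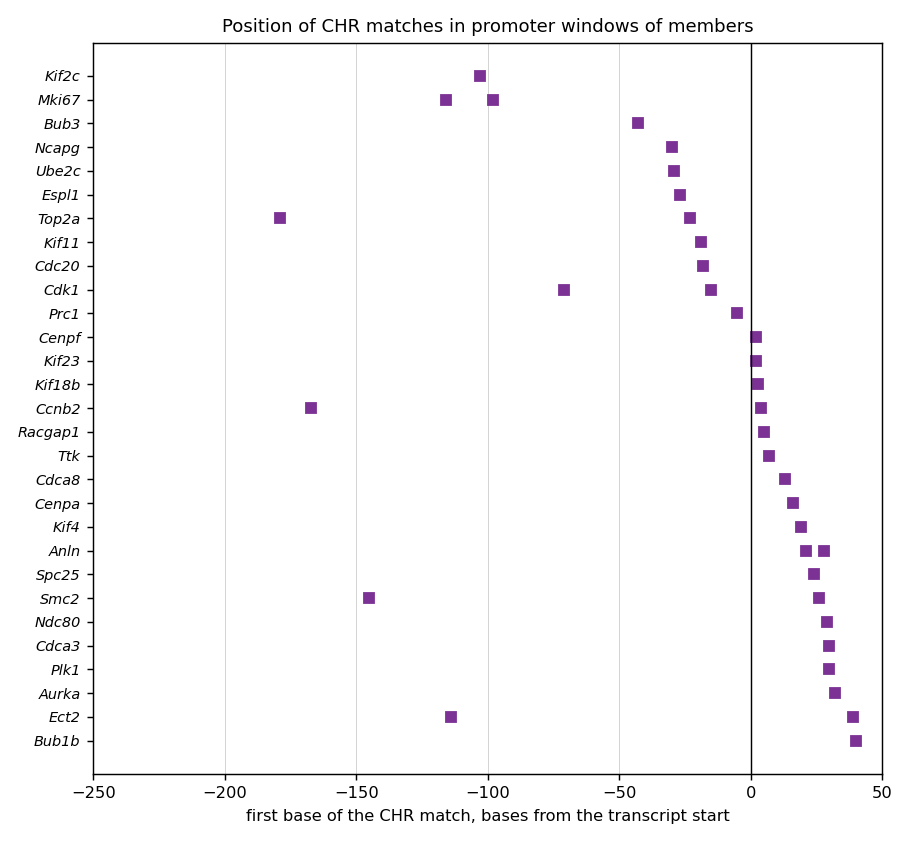
Position of each CHR match (first base, in bases from the transcript start, horizontal axis) in the 29 mitosis genes with a match, 1 gene per line, first window of each gene. Matches lie within 50 bases of the start in 27 of the 29, and Kif2c and Mki67 have theirs farther upstream.

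The windows of 4 central genes are printed here with those of Ccnb2, Mybl2 and Bub3, which were picked once the values were known. Mybl2 and Bub3 rose after CrOE EVs against untreated cells, while Ccnb2 fell, to a lower level than after shCon EVs. Capitals mark the CHR letters, which read TTCAAA on the opposite strand, and the CCAAT letters, which read ATTGG there. Each window is written 5′ to 3′ on the strand of the gene. The coordinates are chr13:100786437-100786736, minus strand for Ccnb1; chr10:69352863-69353162, minus strand for Cdk1; chr7:122159185-122159484, plus strand for Plk1; and chr11:99024140-99024439, minus strand for Top2a. Those of the other 3 are chr9:70421505-70421804, minus strand for Ccnb2, chr2:163054385-163054684, plus strand for Mybl2 and chr7:131560120-131560419, plus strand for Bub3, the first of its 2 windows.
Ccnb1: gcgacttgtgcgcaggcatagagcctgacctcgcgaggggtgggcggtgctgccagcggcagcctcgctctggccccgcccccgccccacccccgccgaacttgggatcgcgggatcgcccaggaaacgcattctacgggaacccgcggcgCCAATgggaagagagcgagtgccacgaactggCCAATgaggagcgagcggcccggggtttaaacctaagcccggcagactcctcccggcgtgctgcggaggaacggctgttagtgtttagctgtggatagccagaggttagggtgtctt
Cdk1: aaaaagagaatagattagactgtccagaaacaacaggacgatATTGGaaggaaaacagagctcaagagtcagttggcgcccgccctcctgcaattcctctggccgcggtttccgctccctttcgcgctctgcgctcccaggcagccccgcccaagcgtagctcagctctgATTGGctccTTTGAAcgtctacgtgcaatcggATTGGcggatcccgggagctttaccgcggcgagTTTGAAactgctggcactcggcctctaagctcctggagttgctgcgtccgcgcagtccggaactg
Plk1: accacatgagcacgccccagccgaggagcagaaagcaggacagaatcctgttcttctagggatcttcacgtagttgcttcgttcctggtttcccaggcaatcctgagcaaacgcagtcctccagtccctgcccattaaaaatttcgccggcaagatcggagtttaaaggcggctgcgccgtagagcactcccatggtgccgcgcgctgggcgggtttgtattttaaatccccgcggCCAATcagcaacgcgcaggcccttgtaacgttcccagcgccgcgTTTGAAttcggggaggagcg
Top2a: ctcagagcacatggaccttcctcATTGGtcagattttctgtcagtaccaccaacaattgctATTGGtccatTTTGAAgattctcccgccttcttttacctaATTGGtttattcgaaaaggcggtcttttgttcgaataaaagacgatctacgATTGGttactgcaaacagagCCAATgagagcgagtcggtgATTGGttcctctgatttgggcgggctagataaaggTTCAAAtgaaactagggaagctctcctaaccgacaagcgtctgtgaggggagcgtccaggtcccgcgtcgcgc
Ccnb2: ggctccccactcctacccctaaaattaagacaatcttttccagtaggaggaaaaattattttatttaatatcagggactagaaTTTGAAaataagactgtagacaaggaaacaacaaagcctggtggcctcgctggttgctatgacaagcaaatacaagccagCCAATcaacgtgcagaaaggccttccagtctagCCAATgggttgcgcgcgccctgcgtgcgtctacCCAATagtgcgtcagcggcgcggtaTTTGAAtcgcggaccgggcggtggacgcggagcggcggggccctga
Mybl2: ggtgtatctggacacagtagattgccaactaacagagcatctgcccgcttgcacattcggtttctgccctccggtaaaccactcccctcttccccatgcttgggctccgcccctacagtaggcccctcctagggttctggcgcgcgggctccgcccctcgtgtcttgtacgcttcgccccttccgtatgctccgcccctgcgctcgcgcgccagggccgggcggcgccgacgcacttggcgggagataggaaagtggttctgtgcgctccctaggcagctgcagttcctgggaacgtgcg
Bub3: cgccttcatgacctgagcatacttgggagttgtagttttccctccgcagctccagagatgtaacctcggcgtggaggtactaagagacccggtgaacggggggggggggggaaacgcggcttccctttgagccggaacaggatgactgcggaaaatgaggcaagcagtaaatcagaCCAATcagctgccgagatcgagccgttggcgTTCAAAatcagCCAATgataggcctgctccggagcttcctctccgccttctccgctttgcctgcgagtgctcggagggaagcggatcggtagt
Ccnb1 held 2 CCAAT matches and no match to TTTGAA in this window, whereas its paralogue Ccnb2 held 3 CCAAT and 2 CHR matches. Only TTTGAA was searched, so variant forms of the CHR would be missed, in Ccnb1 as in the other genes. Top2a held 6 CCAAT and 2 CHR matches. Mybl2 held neither set of letters and was 1 of 7 such genes, with Birc5, Mad2l1, Pttg1, Nuf2, Nusap1 and Ncaph. These were 17.5% of the 40 genes with a window, against 47.7% of all genes.

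Library totals were 25960054 to 37774020 estimated counts. Pearson correlations of log2(CPM + 0.1) across genes were 0.987 to 0.995 within a group and 0.975 to 0.992 among the untreated, shCon and shCr libraries, while the CrOE libraries stood apart at 0.903 to 0.924 with the other groups. The mouse gene of CRIPTO, Tdgf1, had 0 to 3 counts in every library. The donor cells are human and were not sequenced here, so their knockdown and overexpression have no check in these data. Of the 9 fibroblast markers none was at 0. Their summed level was 20800 to 22360 CPM (counts scaled to a common library total with TMM factors, the unit of all levels here) in untreated cells, 26070 to 26380 with shCon EVs, 16320 to 18500 with shCr EVs and 9278 to 9689 with CrOE EVs. The 9 epithelial markers summed to 1.00 to 3.58 CPM, with Epcam at 0 throughout. The 9 immune markers moved with the EV groups and summed to 48.9 to 59.6 CPM in untreated cells, 82.3 to 93.1 with shCon EVs, 129.8 to 193.1 with shCr EVs and 4.89 to 6.41 with CrOE EVs. Most of that sum outside the CrOE libraries was Lyz2, a lysozyme gene, with a log2 fold change against untreated cells of -5.23 with CrOE EVs and 1.64 with shCr EVs. The 9 endothelial markers summed to 5.19 to 6.59 CPM in untreated cells, 8.07 to 8.61 with shCon EVs, 7.02 to 8.06 with shCr EVs and 18.1 to 20.6 with CrOE EVs, with Cldn5 at 0 throughout. Vwf, which encodes von Willebrand factor, had the largest rise of that list after CrOE EVs, 3.13 on the log2 scale. Their part in the results below was not tested.

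Untreated cells carried the highest level of mitosis genes. The 50 genes summed to 1798, 1744 and 1846 CPM in the untreated libraries. They summed to 647, 698 and 697 CPM after shCon EVs (37.9% of the untreated mean) and to 561, 562 and 577 CPM after shCr EVs (31.5%). After CrOE EVs they summed to 877, 838 and 785 CPM (46.4%). No library of one group overlapped with any of another in this sum. In bulk RNA, fewer dividing cells and less RNA of these genes per dividing cell cannot be told apart.

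Gene by gene, 38 of the 50 had their group means in the same order, untreated above CrOE above shCon above shCr. This order was not counted over all tested genes, so whether 38 is unusual was not tested. A gene was called when its p-value from edgeR's quasi-likelihood test, adjusted by Benjamini-Hochberg over all 14279 genes, was under 0.05. After shCon EVs all 50 genes fell against untreated cells and 0 rose, where 20.2% of all tested genes fell and 18% rose. Their median log2 fold change was -1.68 (range -2.49 to -0.23), while over all tested genes the median lay between 0.0043 and 0.020 in each of the 6 comparisons. After shCr EVs all 50 again fell and 0 rose, with 18.8% of all genes lower and 18.4% higher; the median was -2.11 (range -2.93 to -0.20). After CrOE EVs 47 fell, 2 rose (Mybl2 and Bub3) and 1, Cdc25c, was not called, with 37% of all genes lower and 36.7% higher. The median after CrOE EVs was -1.19 (range -2.48 to 0.40). The 3 comparisons share the untreated libraries. At a fall of at least 2-fold the counts were 47, 47 and 36 genes after shCon, shCr and CrOE EVs, against 3.54%, 3.53% and 18.7% of all tested genes. The genes under that size after shCon and shCr EVs were Cdc25b, Bub3 and Smc4.

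**Figure D2:**
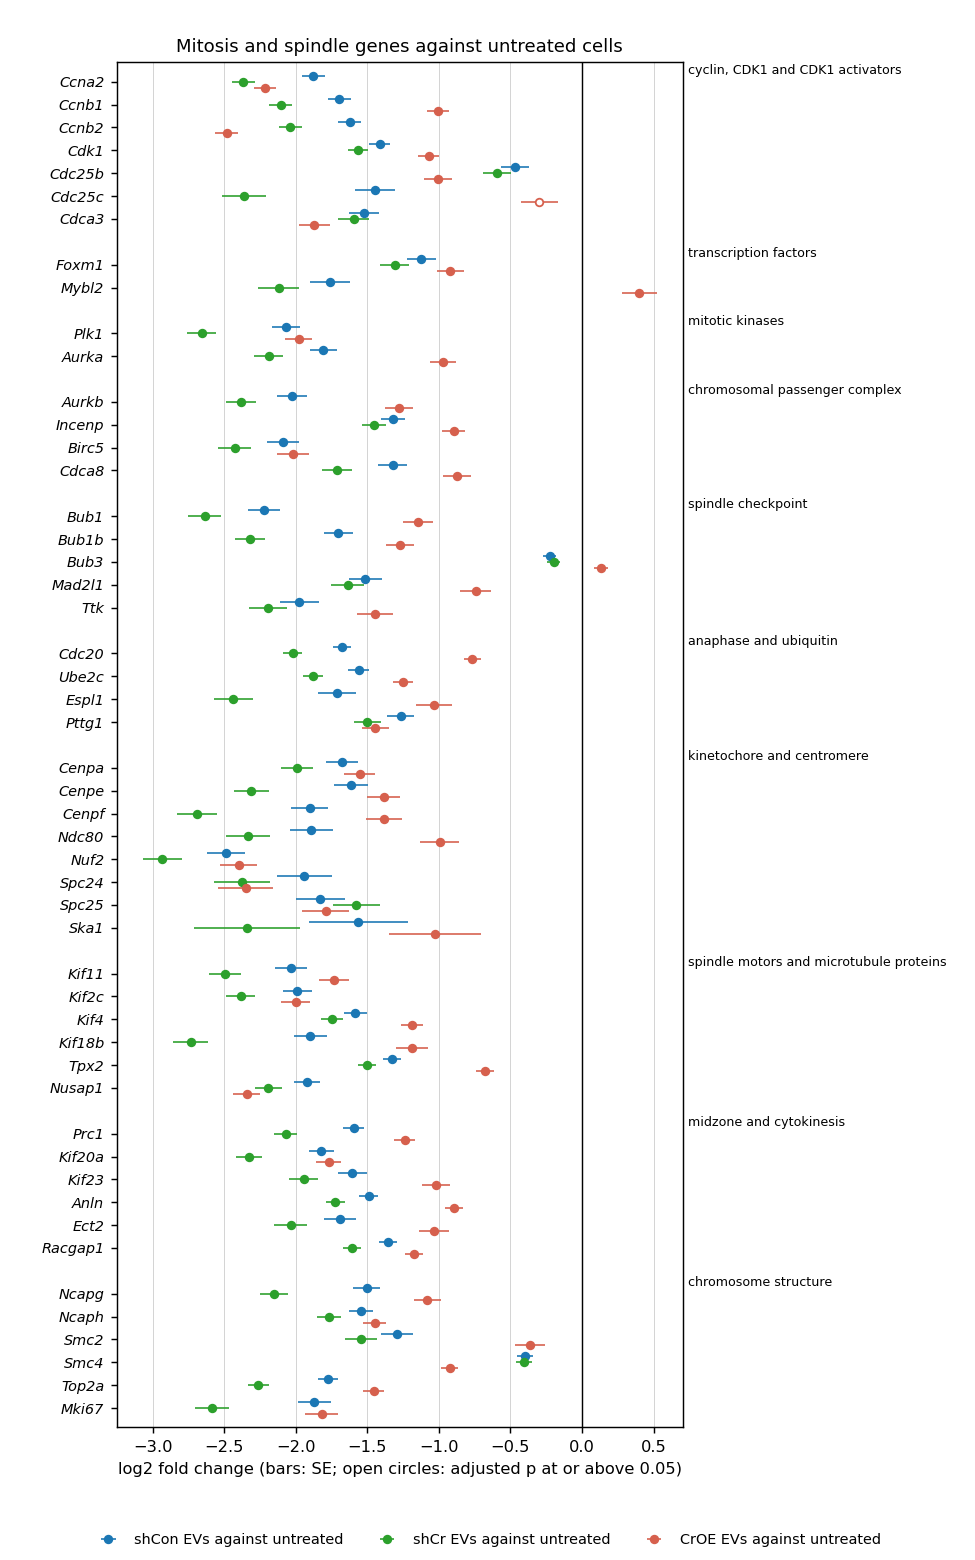
Log2 fold change (horizontal axis) of each of the 50 mitosis genes against untreated cells after shCon, shCr and CrOE EVs, from the fit of 12 libraries, grouped by role; bars are standard errors and open circles have an adjusted p of 0.05 or more. All points lie left of 0 except Mybl2 and Bub3 after CrOE EVs, and the shCr points lie furthest left in 43 of the 50 genes. The count of 43 was not made over all tested genes.

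The EV groups were also compared directly with one another. Against shCon EVs, shCr EVs gave lower levels of 23 genes and higher levels of 0, with 3.51% of all genes lower and 5.22% higher, and the median was -0.36 (range -0.92 to 0.25). The shCr mean was the smaller of the pair in 48 of 50 genes, the exceptions being Bub3 and Spc25. Against shCon EVs, CrOE EVs gave higher levels of 30 genes and lower levels of 6, with 36.5% of all genes higher and 36.1% lower, and the median was 0.36 (range -0.86 to 2.16). The 6 were Ccna2, Ccnb2, Cdc25b, Cdca3, Nusap1 and Smc4. Against shCr EVs, CrOE EVs gave higher levels of 41 genes and lower levels of 4, with 36.9% of all genes higher and 37% lower, and the median was 0.76 (range -0.52 to 2.52). The 4 were Ccnb2, Cdc25b, Cdca3 and Smc4. In 27 genes the CrOE level was called both under untreated cells and over shCon EVs. In 16 genes shCr was called under shCon and CrOE over shCon. These combined counts and the count of 48 were not made over all tested genes, so whether they are unusual was not tested. Counts of calls by role below are to be read against the shares of all genes given above.

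**Figure D3:**
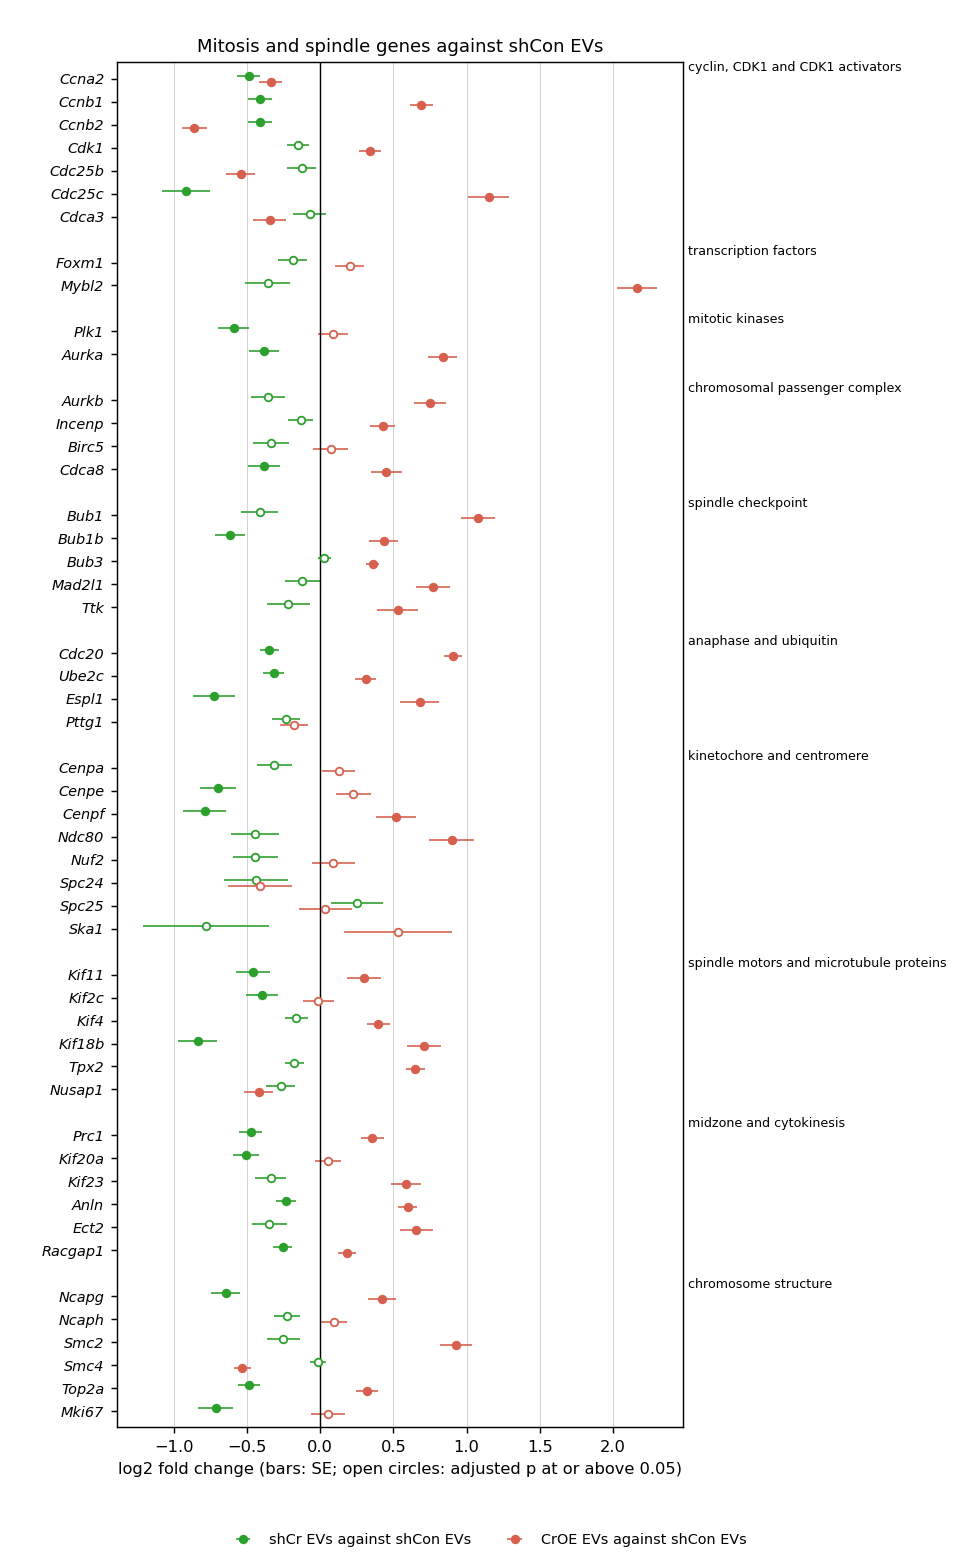
Log2 fold change (horizontal axis) of each of the 50 mitosis genes after shCr and CrOE EVs against shCon EVs, which both comparisons share, grouped by role; bars are standard errors and open circles have an adjusted p of 0.05 or more. The 23 filled shCr points all lie left of 0, and the filled CrOE points lie right of 0 in 30 genes and left in 6.

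Among the cyclins, CDK1 and its activators, all 7 genes fell after shCon and shCr EVs, but they separated from one another after CrOE EVs. Ccnb1, which encodes the cyclin B1 subunit of the mitotic kinase, measured 51.9, 47.9 and 54.5 CPM in untreated cells, 14.5, 16.5 and 16.6 with shCon EVs, 13.1, 11.4 and 11.4 with shCr EVs and 27.1, 25.4 and 24.4 with CrOE EVs. Its paralogue Ccnb2 measured 26.4, 26.4 and 27.5 CPM in untreated cells, 8.73, 8.93 and 8.36 with shCon EVs, 6.03, 6.76 and 6.73 with shCr EVs and 4.85, 5.18 and 4.32 with CrOE EVs. So the CrOE libraries were the highest of the EV libraries for Ccnb1 and the lowest for Ccnb2, with no overlap between groups for either gene. The counting of Ccnb1 is uncertain, since 27.8% of its 31-base stretches are also found in other genes, with Ccnb1-ps sharing most, against 0% for Ccnb2. In edgeR's quasi-likelihood test, adjusted by Benjamini-Hochberg, CrOE against shCon EVs gave a log2 fold change of 0.69 ± 0.08 (SE, adjusted p = 4.88e-06) for Ccnb1 and -0.86 ± 0.084 (adjusted p = 9.53e-07) for Ccnb2. Within a library, Ccnb1 over Ccnb2 was 1.97, 1.81 and 1.98 in untreated cells and 5.58, 4.91 and 5.65 with CrOE EVs, while the shCon mean was 1.83 ± 0.160 and the shCr mean 1.85 ± 0.277 (SD, n = 3). A ratio of CPM between genes of different length has no meaning by itself, so only its change between groups is read, and the pairs of genes were chosen after their values were seen.

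Ccna2, cyclin A2, was lower after CrOE than after shCon EVs, like Ccnb2 and unlike Ccnb1. It measured 52.6, 51.7 and 55.2 CPM in untreated cells, 13.7, 14.97 and 14.7 with shCon EVs, 10.3, 9.52 and 11.1 with shCr EVs and 12.6, 11.3 and 10.5 with CrOE EVs. The CrOE libraries were under every shCon library (log2 fold change -0.34 ± 0.081, edgeR quasi-likelihood adjusted p = 0.0021), and the CrOE and shCr libraries overlapped (adjusted p = 0.112). The ratio of Ccnb1 to Ccna2 was 0.967 ± 0.0349 (SD, n = 3) in untreated cells and 2.24 ± 0.0839 with CrOE EVs. Cdk1, the kinase that both cyclins bind, measured 40.9 ± 1.91 CPM in untreated cells, 15.3 ± 0.256 with shCon EVs, 13.8 ± 0.956 with shCr EVs and 19.4 ± 1.40 with CrOE EVs. The difference of Cdk1 between shCr and shCon EVs was not called (log2 fold change -0.15 ± 0.075, adjusted p = 0.254).

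The CDC25 phosphatases went opposite ways after CrOE against shCon EVs, by 1.15 for Cdc25c and -0.54 for Cdc25b on the log2 scale, while both measured less than in untreated cells. Cdc25c measured 5.97, 6.02 and 5.78 CPM in untreated cells, 1.90, 2.06 and 2.56 with shCon EVs, 1.38, 1.06 and 1.03 with shCr EVs and 5.33, 4.30 and 4.83 with CrOE EVs. Every CrOE library was under every untreated library, and the difference missed the threshold (log2 fold change -0.30 ± 0.13, edgeR quasi-likelihood adjusted p = 0.0562), which it passed under 4 other settings and when CrOE replicate 1 was left out (adjusted p of 0.0298 to 0.0494). The count of Cdc25c is uncertain, since 13.3% of its 31-base stretches are also found in other genes. Cdc25b measured 41.1, 51.9 and 42.8 CPM in untreated cells, 32.2, 32.4 and 33.7 with shCon EVs, 26.2, 31.3 and 32.4 with shCr EVs and 23.6, 23.1 and 20.8 with CrOE EVs. It was among the least changed genes after shCon and shCr EVs, at 72.4% and 66.2% of the untreated mean, and stood at 49.7% after CrOE EVs. The ratio of Cdc25c to Cdc25b was 0.132 ± 0.0147 (SD, n = 3) in untreated cells, 0.0394 ± 0.0114 with shCr EVs and 0.215 ± 0.0249 with CrOE EVs. Cdca3, a trigger of mitotic entry that works with the ubiquitin system, measured 18.9, 22.0 and 22.0 CPM in untreated cells, 6.12, 7.17 and 8.54 with shCon EVs, 6.84, 7.08 and 6.84 with shCr EVs and 5.77, 5.79 and 5.62 with CrOE EVs. Its CrOE libraries were the lowest of all 12, and its fall against shCr EVs (adjusted p = 0.0426) was lost when any 1 library of the pair was left out.

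**Figure D4:**
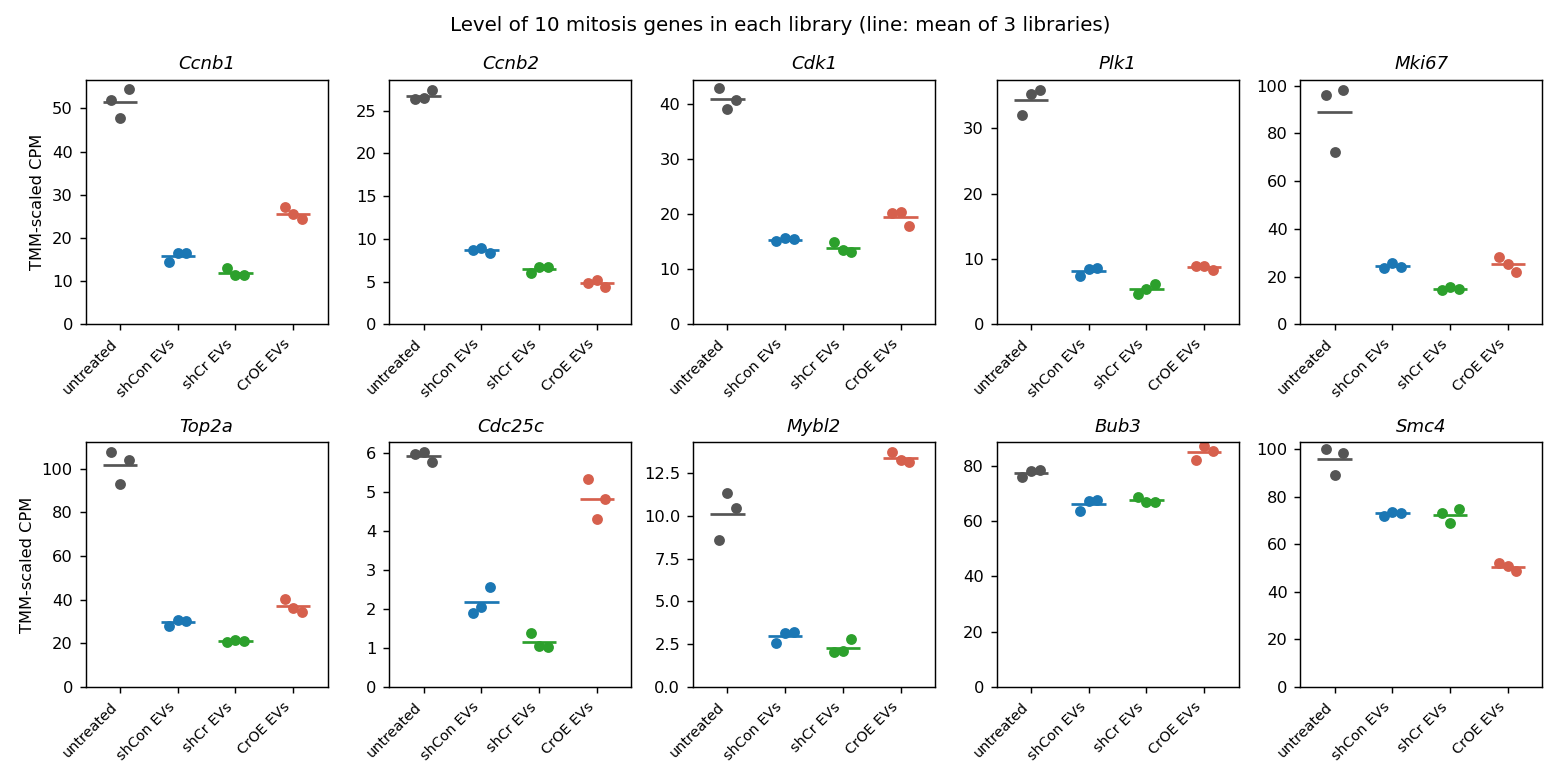
Level of 10 mitosis genes in each library (TMM-scaled CPM, linear vertical axes from 0, 1 point per library, lines at the mean of 3). Most panels step down from untreated cells to the EV groups, while Mybl2 and Bub3 are highest after CrOE EVs and Ccnb2 and Smc4 lowest.

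The transcription factors of the programme separated as well. Mybl2, which encodes the B-MYB factor that turns the MuvB complex into an activator, measured 8.60, 11.3 and 10.4 CPM in untreated cells, 2.58, 3.15 and 3.21 with shCon EVs, 2.04, 2.08 and 2.78 with shCr EVs and 13.7, 13.3 and 13.1 with CrOE EVs. Its shCon and shCr libraries were all under 4 in CPM, and its CrOE libraries were above all others. Its count is uncertain, since 21.1% of its 31-base stretches are also found in other genes. The log2 fold change of Mybl2 against untreated cells was -1.76 ± 0.14 after shCon EVs and 0.40 ± 0.12 after CrOE EVs (edgeR quasi-likelihood adjusted p = 8e-07 and 0.00934). CrOE against shCon EVs gave 2.16 ± 0.14 for Mybl2 (adjusted p = 1.14e-08), the largest rise of any of the 50 genes in that comparison. Foxm1, the forkhead factor that acts later with MuvB, measured 41.5, 46.6 and 44.3 CPM in untreated cells, 19.2, 20.6 and 21.1 with shCon EVs, 14.4, 19.7 and 19.1 with shCr EVs and 24.1, 22.8 and 23.1 with CrOE EVs. Foxm1 fell in all 3 EV groups, and the difference between CrOE and shCon EVs was not called (log2 fold change 0.20 ± 0.099, adjusted p = 0.0828, and 0.0197 in a model of the 2 groups alone). Mybl2 over Foxm1 was 0.207, 0.243 and 0.236 in untreated cells and 0.569, 0.582 and 0.569 with CrOE EVs.

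**Figure D5:**
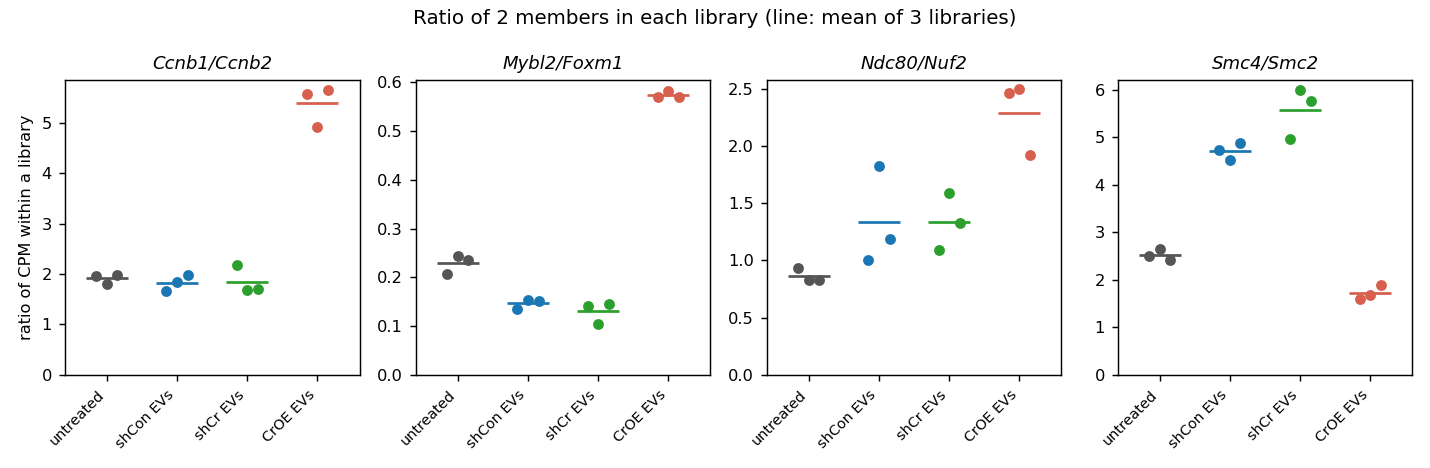
Ratio of the CPM of 2 mitosis genes within each library (vertical axes, linear from 0; 1 point per library, lines at the mean of 3) for Ccnb1 over Ccnb2, Mybl2 over Foxm1, Ndc80 over Nuf2 and Smc4 over Smc2. The CrOE libraries lie above all others in the first 3 panels and below all others in the last.

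The mitotic kinases Plk1 and Aurka both fell in all 3 EV groups. Plk1, which acts in centrosome maturation and mitotic exit, measured 32.1, 35.2 and 35.9 CPM in untreated cells, 7.44, 8.53 and 8.61 with shCon EVs, 4.62, 5.45 and 6.17 with shCr EVs and 8.94, 8.90 and 8.28 with CrOE EVs. Its shCr libraries were under every shCon library (log2 fold change -0.59 ± 0.11, edgeR quasi-likelihood adjusted p = 0.00428), whereas its CrOE and shCon libraries overlapped (adjusted p = 0.459). The counting of Plk1 is uncertain, since 18.7% of its 31-base stretches are also found in other genes, the largest part in the pseudogene Plk-ps1. Counts of Plk-ps1 itself were 21 to 26 in the untreated libraries, 31 to 39 with shCon EVs, 22 to 61 with shCr EVs and 114 to 134 with CrOE EVs. Plk1 and Plk-ps1 summed to 35.3, 9.38, 6.78 and 12.4 CPM in the 4 groups, in the order untreated, shCon, shCr and CrOE. Aurka, the Aurora A kinase of spindle poles, measured 22.9, 22.6 and 22.8 CPM in untreated cells, 5.51, 6.67 and 7.31 with shCon EVs, 4.58, 4.90 and 5.41 with shCr EVs and 11.8, 12.01 and 10.98 with CrOE EVs. The CrOE level of Aurka was 51.0% of the untreated mean and was over the shCon level by 0.84 ± 0.099 on the log2 scale (adjusted p = 5.63e-06).

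All 4 genes of the chromosomal passenger complex, which corrects faulty attachments at centromeres, fell in every EV group. Aurkb, its kinase, measured 15.2 ± 1.26 CPM (SD, n = 3, here and below) in untreated cells, 3.71 ± 0.298 with shCon EVs, 2.90 ± 0.268 with shCr EVs and 6.25 ± 0.426 with CrOE EVs. Incenp, its scaffold, measured 44.9 ± 3.65, 17.9 ± 0.764, 16.4 ± 1.63 and 24.1 ± 1.03 CPM in the same order, with the CrOE level again between untreated cells and the other EV groups. Cdca8, the borealin subunit, measured 18.2, 19.4 and 17.3 CPM in untreated cells, 6.69, 7.54 and 7.71 with shCon EVs, 4.86, 5.58 and 6.28 with shCr EVs and 10.9, 9.98 and 9.13 with CrOE EVs. These 3 genes were higher after CrOE than after shCon EVs, by 0.75, 0.43 and 0.45 on the log2 scale. Birc5, the survivin subunit, measured 15.6, 16.6 and 15.8 CPM in untreated cells, 3.33, 3.82 and 4.07 with shCon EVs, 2.75, 2.79 and 3.31 with shCr EVs and 4.28, 4.13 and 3.40 with CrOE EVs. Its CrOE and shCon libraries overlapped, and their difference was 0.072 ± 0.12 on the log2 scale (edgeR quasi-likelihood adjusted p = 0.606).

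Of the 5 spindle checkpoint genes, 4 fell in all EV groups. All 5 were higher after CrOE than after shCon EVs, where 36.5% of all tested genes were higher. Bub1, a checkpoint kinase at kinetochores, measured 17.0, 14.6 and 14.6 CPM in untreated cells, 3.44, 3.42 and 3.03 with shCon EVs, 2.57, 2.60 and 2.28 with shCr EVs and 7.93, 6.60 and 6.37 with CrOE EVs. No 2 groups of Bub1 overlapped, though shCr against shCon EVs was not called (log2 fold change -0.41 ± 0.13, edgeR quasi-likelihood adjusted p = 0.0676). Bub1b, the BUBR1 subunit of the mitotic checkpoint complex, measured 58.5 ± 1.43 CPM in untreated cells, 17.9 ± 2.50 with shCon EVs, 11.7 ± 1.02 with shCr EVs and 24.2 ± 2.34 with CrOE EVs, and its fall after shCr against shCon EVs was called (-0.62 ± 0.11, adjusted p = 0.0031). Mad2l1, the MAD2 inhibitor of CDC20, measured 26.7 ± 1.20, 9.34 ± 0.446, 8.60 ± 1.51 and 15.9 ± 1.75 CPM in the same order. Ttk, the MPS1 kinase, measured 12.02 ± 0.306, 3.05 ± 0.523, 2.62 ± 0.201 and 4.42 ± 0.656 CPM.

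Bub3, the partner that brings BUB1 and BUBR1 to kinetochores, changed least. It measured 75.8, 77.9 and 78.2 CPM in untreated cells, 63.7, 67.1 and 67.5 with shCon EVs, 68.8, 66.8 and 66.8 with shCr EVs and 82.0, 87.2 and 85.1 with CrOE EVs. All shCon and shCr libraries lay under the untreated ones and all CrOE libraries above them, by -0.23, -0.20 and 0.13 on the log2 scale (edgeR quasi-likelihood adjusted p = 0.002, 0.00457 and 0.019). The rise of Bub3 after CrOE EVs was lost without the filter on low counts (adjusted p = 0.0877), with at least 10 counts required in every library (0.0546), without untreated replicate 1 (0.0714) and without CrOE replicate 2 (0.0698). CrOE against shCon EVs gave 0.36 ± 0.046 for Bub3 (adjusted p = 1.22e-05).

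All 4 genes of anaphase onset and its ubiquitin pathway fell in every EV group, and 3 of the 4 were lower after shCr and higher after CrOE than after shCon EVs. Of all tested genes, 3.51% were lower after shCr and 36.5% higher after CrOE than after shCon EVs. Cdc20, the activator of the anaphase-promoting complex that the checkpoint blocks, measured 45.2, 41.4 and 44.4 CPM in untreated cells, 13.2, 14.2 and 13.6 with shCon EVs, 10.7, 10.99 and 10.6 with shCr EVs and 26.9, 25.7 and 24.4 with CrOE EVs. No 2 groups of Cdc20 overlapped, and the log2 fold change was -0.35 ± 0.065 for shCr and 0.91 ± 0.063 for CrOE against shCon EVs (edgeR quasi-likelihood adjusted p = 0.00566 and 2.9e-08). Ube2c, the ubiquitin-conjugating enzyme of that complex, measured 32.6 ± 1.00 CPM in untreated cells, 11.04 ± 0.275 with shCon EVs, 8.86 ± 0.147 with shCr EVs and 13.7 ± 1.15 with CrOE EVs. Espl1, the separase that cuts cohesin, measured 21.9 ± 2.56, 6.68 ± 0.815, 4.05 ± 0.681 and 10.7 ± 1.06 CPM in the same order. Pttg1, the securin that inhibits separase, measured 18.3, 18.5 and 20.1 CPM in untreated cells, 7.48, 8.53 and 7.64 with shCon EVs, 7.37, 5.83 and 6.94 with shCr EVs and 7.10, 7.10 and 6.74 with CrOE EVs. Unlike Espl1, no difference of Pttg1 from shCon EVs was called (adjusted p = 0.171 for shCr and 0.114 for CrOE EVs), though that of CrOE EVs passed in a model of the 2 groups alone (-0.21 on the log2 scale, 0.0395).

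The 8 kinetochore and centromere genes fell in all EV groups, with medians of -1.86, -2.34 and -1.47 on the log2 scale after shCon, shCr and CrOE EVs. The NDC80 complex, which grips microtubules, is made of the products of Ndc80, Nuf2, Spc24 and Spc25. Nuf2 had the largest fall of the 50 genes after shCon and after shCr EVs. It measured 16.8, 15.8 and 16.6 CPM in untreated cells, 3.19, 2.52 and 3.06 with shCon EVs, 2.64, 1.73 and 2.09 with shCr EVs and 3.42, 2.82 and 3.09 with CrOE EVs. Ndc80 measured 15.7, 13.2 and 13.7 CPM in untreated cells, 3.19, 4.62 and 3.64 with shCon EVs, 2.89, 2.75 and 2.78 with shCr EVs and 8.44, 7.04 and 5.92 with CrOE EVs. Only Ndc80 of the complex was called higher after CrOE than after shCon EVs (0.90 ± 0.15 on the log2 scale, edgeR quasi-likelihood adjusted p = 0.000144), whereas Nuf2, Spc24 and Spc25 gave 0.091, -0.41 and 0.036 (adjusted p = 0.59, 0.105 and 0.868). Ndc80 over Nuf2 within a library was 0.932, 0.834 and 0.825 in untreated cells and 2.46, 2.50 and 1.92 with CrOE EVs, with 1.00, 1.83 and 1.19 with shCon EVs between them. Ndc80 over Spc24 was 2.45 ± 0.140 (SD, n = 3) in untreated cells, 2.63 ± 0.655 with shCon EVs, 2.53 ± 0.252 with shCr EVs and 6.38 ± 1.23 with CrOE EVs. The Ndc80 transcripts share 10.5% of their 31-base stretches with other genes, so part of its count may belong elsewhere.

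Spc24 measured 5.80 ± 0.476 CPM in untreated cells, 1.503 ± 0.422 with shCon EVs, 1.12 ± 0.106 with shCr EVs and 1.14 ± 0.221 with CrOE EVs. Spc25 measured 11.7, 7.78 and 9.79 CPM in untreated cells, 3.19, 2.39 and 2.67 with shCon EVs, 3.81, 2.92 and 3.10 with shCr EVs and 3.11, 2.56 and 2.78 with CrOE EVs, and its 9 EV libraries overlapped with one another. Cenpa, the histone variant that marks the centromere, measured 26.0 ± 1.93 CPM in untreated cells, 8.12 ± 0.646 with shCon EVs, 6.56 ± 0.674 with shCr EVs and 8.88 ± 1.25 with CrOE EVs. Cenpe, a kinetochore motor, measured 41.5 ± 4.78, 13.6 ± 0.485, 8.35 ± 1.25 and 15.9 ± 1.85 CPM in the same order, and Cenpf, a large kinetochore protein of late G2, 20.1 ± 2.37, 5.37 ± 0.528, 3.12 ± 0.468 and 7.71 ± 0.941. Cenpe and Cenpf were the 2 genes of this role lower after shCr than after shCon EVs, by -0.70 ± 0.12 and -0.79 ± 0.15 on the log2 scale (edgeR quasi-likelihood adjusted p = 0.00415 and 0.00524). Ska1, of the complex that stabilises kinetochore attachment, measured 1.21, 0.839 and 1.29 CPM in untreated cells, 0.215, 0.266 and 0.648 with shCon EVs, 0.247, 0.192 and 0.212 with shCr EVs and 0.603, 0.553 and 0.477 with CrOE EVs. The difference of Ska1 between shCr and shCon EVs, -0.78 ± 0.43 on the log2 scale, was not called (adjusted p = 0.323). Its counts are few, and shCon replicate 3 lay above all other shCon and shCr libraries. CrOE against shCr EVs was called for Ska1 (1.31 ± 0.40, adjusted p = 0.00947).

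The 6 genes of spindle motors and microtubule proteins all fell in every EV group. Kif11, the motor that pushes spindle poles apart, measured 27.4 ± 3.35 CPM in untreated cells, 6.69 ± 0.448 with shCon EVs, 4.85 ± 0.467 with shCr EVs and 8.24 ± 0.762 with CrOE EVs. Kif18b, a motor of astral microtubule ends, measured 14.6, 16.4 and 17.9 CPM in untreated cells, 3.86, 4.71 and 4.54 with shCon EVs, 2.15, 2.31 and 2.84 with shCr EVs and 7.45, 6.98 and 7.05 with CrOE EVs. Its 4 groups did not overlap, and the differences from shCon EVs were -0.84 ± 0.13 after shCr and 0.71 ± 0.12 after CrOE EVs on the log2 scale (edgeR quasi-likelihood adjusted p = 0.00176 and 0.000134). Kif2c, which takes microtubules apart at centromeres, measured 22.2 ± 1.503 CPM in untreated cells, 5.58 ± 0.680 with shCon EVs, 4.23 ± 0.225 with shCr EVs and 5.54 ± 0.446 with CrOE EVs. Kif4, a chromosome-bound kinesin, measured 30.7 ± 0.744, 10.2 ± 0.453, 9.13 ± 0.557 and 13.5 ± 1.18 CPM in the same order. Tpx2, the activator of Aurora A on spindles, measured 84.6 ± 1.84, 33.7 ± 1.98, 29.8 ± 0.315 and 52.9 ± 3.94 CPM, and at 62.6% of the untreated mean it kept more of its level after CrOE EVs than the other 5. Nusap1, a microtubule bundler near chromosomes, measured 26.4, 23.3 and 24.5 CPM in untreated cells, 6.19, 6.67 and 6.67 with shCon EVs, 5.005, 5.86 and 5.33 with shCr EVs and 5.30, 5.004 and 4.32 with CrOE EVs. It was the gene of this role lower after CrOE than after shCon EVs (-0.42 ± 0.098, adjusted p = 0.0019), and its CrOE and shCr libraries overlapped.

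All 6 genes of the midzone and cytokinesis fell in every EV group, and all 6 were higher after CrOE than after shCr EVs. In the comparison of CrOE with shCr EVs, 36.9% of all tested genes were higher. Prc1, which bundles the antiparallel microtubules of the midzone, measured 37.7, 37.9 and 39.2 CPM in untreated cells, 12.4, 13.6 and 11.96 with shCon EVs, 8.78, 8.94 and 9.54 with shCr EVs and 17.6, 16.3 and 14.8 with CrOE EVs, with no overlap between groups. Kif20a, a midzone motor, measured 76.1 ± 2.78 CPM in untreated cells, 21.5 ± 1.30 with shCon EVs, 15.2 ± 1.39 with shCr EVs and 22.3 ± 2.52 with CrOE EVs, and its CrOE and shCon levels differed by 0.052 ± 0.089 on the log2 scale (edgeR quasi-likelihood adjusted p = 0.616). Kif23 and Racgap1 encode the subunits of centralspindlin, which positions the cleavage furrow. Kif23 measured 30.4 ± 1.13, 9.97 ± 1.58, 7.88 ± 0.615 and 14.9 ± 0.765 CPM in the order untreated, shCon, shCr and CrOE, and Racgap1 73.4 ± 1.23, 28.7 ± 2.19, 24.1 ± 0.810 and 32.5 ± 1.48. CrOE against shCon EVs gave 0.58 ± 0.1 for Kif23 and 0.18 ± 0.063 for Racgap1 on the log2 scale (adjusted p = 0.000191 and 0.0197), the latter lost without the filter on low counts (0.0533) and without shCon replicate 1 (0.109), CrOE replicate 1 (0.0599) or CrOE replicate 2 (0.0613). Ect2, the exchange factor that centralspindlin recruits, measured 27.7 ± 2.53, 8.57 ± 0.917, 6.76 ± 0.777 and 13.5 ± 1.29 CPM. Anln, the anillin scaffold of the contractile ring, measured 80.7 ± 3.37, 28.7 ± 1.11, 24.4 ± 0.508 and 43.4 ± 3.57 CPM.

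In mitotic chromosome structure, Smc2 and Smc4, the core pair shared by both condensins, moved apart. Smc2 measured 39.9, 33.7 and 40.6 CPM in untreated cells, 15.2, 16.3 and 15.02 with shCon EVs, 14.7, 11.50 and 13.0 with shCr EVs and 32.8, 30.2 and 25.7 with CrOE EVs. Smc4 measured 100.2, 89.1 and 98.5 CPM in untreated cells, 72.0, 73.7 and 73.2 with shCon EVs, 73.0, 68.8 and 74.9 with shCr EVs and 52.0, 50.7 and 48.8 with CrOE EVs. Smc2 was thus far lower after shCon and shCr than after CrOE EVs, and Smc4 was lowest after CrOE EVs, with no CrOE library overlapping those of the other groups for either gene. Against shCon EVs, CrOE EVs gave 0.93 ± 0.11 for Smc2 and -0.53 ± 0.056 for Smc4 on the log2 scale (edgeR quasi-likelihood adjusted p = 5.85e-06 and 2.09e-06). Smc4 over Smc2 was 2.51, 2.65 and 2.43 in untreated cells, 4.72, 4.51 and 4.88 with shCon EVs, 4.97, 5.99 and 5.76 with shCr EVs and 1.59, 1.68 and 1.90 with CrOE EVs.

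Ncapg and Ncaph, subunits of condensin I, measured 21.0 ± 1.41 and 26.5 ± 2.48 CPM in untreated cells, 7.39 ± 0.332 and 9.09 ± 0.770 with shCon EVs, 4.71 ± 0.626 and 7.77 ± 0.212 with shCr EVs, and 9.92 ± 0.412 and 9.71 ± 0.207 with CrOE EVs. Ncapg was called in both comparisons with shCon EVs (-0.65 ± 0.1 after shCr and 0.42 ± 0.096 after CrOE EVs on the log2 scale, edgeR quasi-likelihood adjusted p = 0.00178 and 0.00149), and Ncaph in neither (0.146 and 0.343). Top2a, the topoisomerase that untangles sister chromatids, measured 108, 93.1 and 104 CPM in untreated cells, 28.0, 30.6 and 30.4 with shCon EVs, 20.8, 21.6 and 21.1 with shCr EVs and 40.4, 36.3 and 34.4 with CrOE EVs, with no overlap between groups. Mki67, which coats mitotic chromosomes and serves as a marker of dividing cells, measured 96.2, 72.2 and 98.3 CPM in untreated cells, 23.5, 25.5 and 23.9 with shCon EVs, 14.2, 15.4 and 14.8 with shCr EVs and 28.3, 25.4 and 21.9 with CrOE EVs. Its shCr libraries lay under all others (-0.71 ± 0.12 against shCon EVs, adjusted p = 0.00275), while its CrOE and shCon libraries overlapped (adjusted p = 0.708).

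Some calls between shCr and shCon EVs changed with the libraries in the model. In a model of these 2 groups alone, 16 of the 50 genes were called lower, with 1.77% of all genes in that model lower. Aurka, Cdca8, Ube2c, Kif11, Kif2c, Anln and Racgap1 were not called there (adjusted p of 0.0525 to 0.160). The same 7 calls were each lost when 1 of 4 or more of the 6 libraries was left out (adjusted p of 0.0505 to 0.181). Between CrOE and shCon EVs the rise of Kif11 was lost without shCon replicate 1 (0.111), shCon replicate 2 (0.0571) or CrOE replicate 1 (0.118), and the fall of Cdca3 without shCon replicate 3 (0.0848). Without shCon replicate 3 the differences of Spc24 and Ska1 passed the threshold (0.0204 and 0.0104), as did that of Cenpe without CrOE replicate 3 (0.0385). Sequence shared with other genes is a second limit, as 15 of the 50 genes either had over 10% of their 31-base stretches in other genes or overlapped exons of a gene on the opposite strand. Ccnb1 (27.8%, Ccnb1-ps), Cdc20 (26.7%, Gm7856), Kif20a (26.7%, Cdc23), Ube2c (24.7%, Tnnc2) and Mybl2 (21.1%, Gm3320) had the largest shares, each named with the single gene sharing most. Stretches were matched on both strands. Exons of Cdc23 and Tnnc2 overlap Kif20a and Ube2c on the opposite strand, so counting by strand could separate them, and the use of strand is not given. Of the other 35 genes, 35 fell after both shCon and shCr EVs, and 34 fell after CrOE EVs, where Bub3 rose. The counts of these 35 are not all certain either, since some, among them Bub3, Top2a and Nuf2, had values that were not whole. Why those values were not whole was not tested.

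Further genes of mitosis, 124 in all from 4 lists of centromere and kinetochore genes, spindle and cytokinesis genes, regulators of mitotic entry and exit, and condensin and cohesin genes, had medians nearer to 0. Against untreated cells 102 were lower and 1 higher after shCon EVs, 100 lower and 1 higher after shCr EVs, and 73 lower and 20 higher after CrOE EVs, with medians of -0.87, -0.86 and -0.45 on the log2 scale. Over all tested genes the shares were 20.2% lower and 18% higher after shCon EVs, 18.8% and 18.4% after shCr EVs, and 37% and 36.7% after CrOE EVs. Pbk, a mitotic kinase, had the largest fall after shCon and shCr EVs (-2.63 and -2.96), and Depdc1a the largest after CrOE EVs (-2.28). Called kinetochore genes ranged after CrOE EVs from Sgol2a, a shugoshin that protects centromeric cohesion, at -1.37 to Mis12, of the complex that links the kinetochore to the centromere, at 1.22. Mis12 measured 28.9 ± 2.04 CPM (SD, n = 3) in untreated cells, 24.2 ± 0.745 with shCon EVs, 23.7 ± 1.59 with shCr EVs and 67.2 ± 2.48 with CrOE EVs. Cdc25a, the CDC25 phosphatase of the G1 to S transition, measured 21.4 ± 2.43, 17.6 ± 0.770, 15.7 ± 1.27 and 44.4 ± 1.53 CPM in the same order, so that it was highest after CrOE EVs, unlike Cdc25b and Cdc25c. The other extremes of the lists against untreated cells were Casc5, a kinetochore scaffold (-2.34 after shCr EVs), the kinesins Kif15 (-2.05 after shCon EVs) and Kif14 (-2.69 after shCr EVs), the centriole gene Cep152 (0.80 after CrOE EVs) and Anapc13, of the anaphase-promoting complex (0.28 after shCr EVs). In the condensin and cohesin list they were Cdca2 (-1.69, -2.25 and -0.95 after shCon, shCr and CrOE EVs), the cohesin loader Mau2 (0.28 after shCon EVs) and the cohesin regulator Pds5a (0.77 after CrOE EVs). Between shCr and shCon EVs 9 of the 124 were lower and 2 higher (3.51% and 5.22% of all genes), and between CrOE and shCon EVs 15 were lower and 75 higher (36.1% and 36.5%).

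Of 12 genes of the DREAM and MuvB complexes, which repress or activate the mitosis genes, 6 were lower and 1 higher after shCon EVs, 5 lower and 1 higher after shCr EVs, and 1 lower and 7 higher after CrOE EVs, against untreated cells. Of all tested genes 20.2%, 18.8% and 37% were lower and 18%, 18.4% and 36.7% higher in these comparisons. The 1 lower gene was Rbl2, the p130 pocket protein of the repressing form, at 78.0 ± 9.80 CPM in untreated cells, 62.8 ± 1.97 with shCon EVs, 70.5 ± 8.59 with shCr EVs and 22.2 ± 0.591 with CrOE EVs (log2 fold change -1.81 ± 0.099 for CrOE against untreated, edgeR quasi-likelihood adjusted p = 2.63e-09). Lin52, a MuvB core subunit, had the largest rise, 1.18 ± 0.13 (adjusted p = 2.61e-06). Rbl1, the p107 relative of Rbl2, fell after shCon and shCr EVs (-0.92 and -1.03) and measured -0.12 after CrOE EVs, which was not called (adjusted p = 0.356). Lin37 (0.30) and Lin52 (0.38) were the genes that rose after shCon and after shCr EVs.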

How the data were processed

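Poly(A)-selected, directional RNA libraries of 3T3 cells were made per the labels' protocols, 3 in each of 4 groups. The authors' table holds estimated counts, 1 row per gene symbol, unscaled between libraries as deposited. Of its values 39.8% were not whole numbers, and 30 of the 50 mitosis genes had a value over 0.01 from a whole number. featureCounts and the build mm39 are named in the submitters' processing notes, and the annotation and the use of strand in counting are not given in the sources used here. Columns were matched to samples by name, and the 3 columns that carry only the name of CRIPTO were assigned to CrOE by elimination. In 27 rows the symbol had become a date, and none of the 50 genes is among them.

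The estimated counts were rounded, although the planned design had assumed whole counts. Genes were filtered with filterByExpr and scaled by TMM, and all 12 libraries were fitted in 1 model with a mean per group (8 residual degrees of freedom). The test was the quasi-likelihood F-test of edgeR 4.0.16 under R 4.3.3, with p-values adjusted by Benjamini-Hochberg over 14279 genes; standard errors came from the F statistic. The test was checked on simulated counts, with the share of changed genes it had to recover lowered after a first run fell short of it. Alternatives were median-of-ratios factors, total counts alone, DESeq2 1.42.0, 2 other filters, a replicate block, a fold of at least 2, models of 2 groups, each replicate left out and, chosen after seeing the data, the genes with little shared sequence. Shared 31-base stretches and exon overlaps were read from GENCODE M21 transcripts.

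The 50 genes and the lists were chosen with earlier results of these data known. All 50 genes are named; of other lists, the largest called rise and fall against untreated cells among genes averaging 1 or more in log2 CPM, and Mis12, Cdc25a and the genes a sentence turns on. Depth limits the precision: Ska1 rests on 6 to 35 counts. The value of 1 immune marker is not reported here.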

Additional observations from a re-analysis of the deposited data

Results flagged for a closer look

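Against untreated cells, 2 of the 50 mitosis genes, Mybl2 and Bub3, were called higher after CrOE EVs and lower after shCon and shCr EVs. CrOE EVs also differed from shCon and from shCr EVs when tested directly. Between shCr and shCon EVs neither gene was called (edgeR quasi-likelihood adjusted p = 0.193 for Mybl2 and 0.77 for Bub3). For Mybl2 the log2 fold change was 2.16 ± 0.14 (SE) for CrOE against shCon EVs and 2.52 ± 0.14 for CrOE against shCr EVs (edgeR quasi-likelihood adjusted p = 1.14e-08 and 2.57e-09), and all 3 CrOE libraries were above the other 9. For Bub3 it was 0.36 ± 0.046 and 0.33 ± 0.046 (adjusted p = 1.22e-05 and 2.4e-05), and again all 3 CrOE libraries were above the other 9. The count of Mybl2 is uncertain, since 21.1% of its 31-base stretches are also found in other genes. Both genes had values that were not whole.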

How the results depend on the processing

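With a fold change of at least 2 required besides the adjusted p, the count of mitosis genes higher after CrOE EVs than in untreated cells was 0, the count lower after shCr than after shCon EVs was 0, the counts for CrOE against shCon EVs were 0 lower and 3 higher, and those for CrOE against shCr EVs were 0 lower and 16 higher. By that rule the lower share of all tested genes was 0.357% for shCr against shCon EVs. It was 17.9% for CrOE against shCon EVs and 18.6% for CrOE against shCr EVs. The shares of all genes higher by that rule were not computed. The 2 genes higher after CrOE EVs than in untreated cells became 1 with no filter on low counts and 1 with at least 10 counts in every library, and 1 to 2 when a replicate was left out, since the call of Bub3 was lost. Among the 35 genes with little shared sequence, a choice made after seeing the data, 1 was higher and the median was -1.27 for CrOE EVs against untreated cells, the median was -2.04 for shCr EVs against untreated cells, 13 were lower for shCr against shCon EVs and 3 were lower for CrOE against shCon EVs. Leaving out each replicate moved the median log2 fold change between -2.15 and -2.06 for shCr EVs against untreated cells and between -0.42 and -0.32 for shCr against shCon EVs, where 16 to 21 genes were called lower. For shCr against shCon EVs 1.76% to 4.32% of all tested genes were lower in those fits. The same replicate numbers in different groups did not mark paired libraries (correlations of deviations from -0.204 to 0.315 over 18 pairs, against -0.364 to 0.350 for 36 pairs with different numbers; 5 of 12 libraries matched best with their own number). With the replicate block, 50, 50 and 47 genes were lower against untreated cells, 24 were lower for shCr against shCon EVs, and 30 and 41 were higher for CrOE against shCon and shCr EVs. The shares of all tested genes under that block were 20.9%, 19.5% and 37.4% lower against untreated cells. They were 3.68% lower for shCr against shCon EVs, and 37.1% and 37.6% higher for CrOE against shCon and shCr EVs. DESeq2 and other scalings kept the direction of all 50 genes in the 6 comparisons.

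Genes whose difference turned sign were not called in any such case. For shCr against shCon EVs these were Cdca3 (-0.19 to 0.053), Bub3 (-0.0029 to 0.040) and Smc4 (-0.041 to 0.020), as ranges of log2 fold change over the replicates left out. For CrOE against shCon EVs they were Birc5 (-0.0088 to 0.17), Nuf2 (-0.0074 to 0.16), Spc25 (-0.057 to 0.15), Kif2c (-0.11 to 0.062), Kif20a (-0.020 to 0.14) and Mki67 (-0.035 to 0.15). For CrOE against shCr EVs they were Pttg1 (-0.034 to 0.12) and Spc24 (-0.13 to 0.16, and -0.0028 with at least 10 counts in every library). The cause of these changes was not tested. Ska1, with its low counts, had no value under that filter.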

Other observations

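Genes of DNA replication act earlier in the cell cycle than the mitosis genes. Of 36 such genes, 35 were lower and 0 higher after shCon EVs and after shCr EVs, and 17 were lower and 10 higher after CrOE EVs, against untreated cells. Of all tested genes 20.2%, 18.8% and 37% were lower and 18%, 18.4% and 36.7% higher after shCon, shCr and CrOE EVs, and no test compared the list with them. Cdc6, which loads the replicative helicase, measured 4.76 ± 0.380 CPM (SD, n = 3) in untreated cells, 0.784 ± 0.251 with shCon EVs, 0.587 ± 0.180 with shCr EVs and 9.20 ± 0.545 with CrOE EVs. Mcm7, a subunit of that helicase, measured 65.3 ± 2.71, 35.4 ± 3.11, 31.6 ± 2.12 and 190.2 ± 0.770 CPM in the same order. Tk1, the thymidine kinase, measured 27.4 ± 1.02, 5.68 ± 0.303, 4.99 ± 0.224 and 4.14 ± 0.440 CPM and so was lowest after CrOE EVs.

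Of 12 genes of G1 cyclins, their kinases and CDK inhibitors, 5 were lower and 2 higher after shCon EVs, 5 lower and 4 higher after shCr EVs, and 11 lower and 1 higher after CrOE EVs, against untreated cells, to be read against the same shares of all tested genes. Ccnd1, cyclin D1, measured 288 ± 14.4 CPM in untreated cells, 101 ± 4.97 with shCon EVs, 162 ± 1.57 with shCr EVs and 14.1 ± 1.20 with CrOE EVs. The gene that rose after CrOE EVs was Cdk4, the kinase partner of cyclin D1 (log2 fold change 0.15). The largest rises after shCon and shCr EVs were those of the CDK inhibitors Cdkn2b (0.30) and Cdkn2c (0.60). After CrOE EVs Cdkn2b (-0.38) and Cdkn2c (-2.18) fell, as did every other gene of the list except Cdk4. These counts use edgeR's quasi-likelihood test as for the mitosis genes.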
